A study of Mus musculus with 2 samples.

Results

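Undifferentiated crypt epithelial cells of the mouse colon were described in 2 droplet single-cell RNA libraries, 1 from wild-type C57BL/6 mice given THC (tetrahydrocannabinol, the compound of cannabis chiefly behind its psychoactive effects) at 10 mg/kg and 1 from wild-type C57BL/6 mice given vehicle. The cells were chosen by their own measured UMI counts. A barcode was kept at 1000 or more UMIs (unique molecular identifiers, which count RNA molecules), 200 or more genes and under 15% mitochondrial UMIs. It was epithelial when Epcam, Krt8 and Cldn7 summed to at least 5 UMIs and Ptprc, the pan-leukocyte gene, gave at most 1. It was set apart from goblet cells by Muc2, the main gel-forming mucin, at under 0.3% of its UMIs. Among these, crypt cells were those in which Ascl2, Clca3b, Kcne3 and Aldh1b1 summed to at least 2 UMIs and to no less than the sum of Hoxb13, Krt36, Sycn, Aqp4, Tgm3 and Slc6a14, genes of distal colonocytes. These steps gave 44 crypt cells of 436 passing barcodes in the THC library and 81 of 703 in the vehicle library, or 125 of 1139 in all. Cells with a distal sum of at least 2 and above the crypt sum are called distal-side colonocytes below. They numbered 60 and 58, beside 49 and 71 goblet cells.

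Each condition was 1 library, so no difference between THC and vehicle has a replicate check, and no p-value is given. Intervals are exact 95% intervals that cover counting error only. The labels do not say how many mice each library pooled, nor the sex or age of the animals or the time after dosing. The tissue had been digested toward the lamina propria, the connective layer under the epithelium, and enriched on a Percoll gradient. The epithelial cells analysed here are those that came through that preparation. No barcode was shared between the crypt cells of the libraries.

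The colonic crypt is a pocket of epithelium renewed from stem cells at its base. Wnt signals from the surrounding stroma keep those cells dividing, and their daughters divide a few times more before they mature into absorptive colonocytes, goblet cells or enteroendocrine cells while moving toward the surface. Ascl2 is a Wnt-responsive transcription factor of the stem cell programme. Kcne3 is a subunit of a basolateral potassium channel that supports chloride secretion, Aldh1b1 is a mitochondrial aldehyde dehydrogenase, and Clca3b belongs to a family of secreted chloride channel regulators.

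The crypt cells were deeply sequenced. Their median was 20726 UMIs and 4568 genes in the THC library and 16471 UMIs and 3932 genes in the vehicle library, with single cells from 1185 to 42030 and from 1100 to 39158 UMIs. In all they held 913308 and 1280172 UMIs. The median share of mitochondrial UMIs was 6.66% and 7.85%. The kit reads the 5′ end, so 1 UMI stands for 1 transcript end whatever the gene's length. Levels are given as CPM, the share of a gene in all UMIs of the cells compared, scaled to a common total.

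The 4 marker genes chose the cells, so their levels are a description. In the THC and vehicle crypt cells Ascl2 lay at 49.3 and 52.3 CPM, Clca3b at 446 and 398, Kcne3 at 308 and 289, and Aldh1b1 at 446 and 378. Aldh1b1 was found in 41 of 44 and 72 of 81 cells, Ascl2 in 15 and 24, and all 4 genes together in 14 and 21. The median cell held 23 and 15 marker UMIs, well above the limit of 2. At that limit stood 2 THC and 8 vehicle members, and 13 and 21 non-goblet epithelial cells with 1 marker UMI were left outside. A further 41 and 39 cells had 2 or more marker UMIs but a higher distal sum, of which 1 and 4 missed membership by a single UMI. Muc2 was at 0 in 42 of 44 and 63 of 81 members. The member highest in Muc2 held 0.0442% of its UMIs in the THC library and 0.272% in the vehicle library, where the lowest goblet cells held 0.310% and 0.305%.

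Crypt cells made up 37.6% (interval 28.8 to 47.0) of the 117 non-goblet epithelial cells of the THC library and 46.0% (38.5 to 53.7) of the 176 of the vehicle library, a ratio of 0.817. The intervals overlap. The rule counts UMIs, so a deeper cell meets it more easily. With every cell thinned to 1000 UMIs before the rule was applied, the mean share over 20 draws was 16.5% (lowest 11.96, highest 22.9) and 16.2% (12.1 to 19.6). At 1 depth the shares of the libraries were thus nearly equal. The THC matrix was deposited with all barcodes and the vehicle matrix after cells had been called, and the part of that difference in the shares was not tested.

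Genes of crypt stem cells and of Wnt signalling that the rule did not use were mostly higher in the crypt cells than in the distal-side colonocytes of the same library. The rule split these classes by expression, so the comparison is a description without a test. Of the 17 genes of this list with at least 20 UMIs, 14 were higher in both libraries, against 42.2% of the 9708 genes measured. At least 2-fold higher in both were 7, against 435 of all genes, or 4.48%. Cd44, a hyaluronan receptor and Wnt target, stood at 159 and 166 CPM in the THC and vehicle crypt cells against 11.4 and 8.58 CPM in the distal-side colonocytes, log2 ratios of 3.80 and 4.28. Slc12a2, the basolateral cotransporter that loads cells with chloride, stood at 296 and 354 CPM against 86.3 and 101 CPM. Both genes were thus far higher in the crypt cells of each library.

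Other genes, among them genes of Wnt feedback, followed. Axin2, part of the complex that degrades β-catenin, had log2 ratios of 2.96 and 1.51 over distal-side colonocytes. Rnf43, a ligase that removes Wnt receptors, had 1.53 and 1.57, and Ephb3, which sorts cells along the crypt, 1.45 and 1.23. Cdca7 had 1.65 and 1.38, and Rgmb, a BMP co-receptor, 1.18 and 1.18. Lgr5, the receptor for R-spondins that marks the stem cells themselves, gave 24 and 42 UMIs in 12 of 44 and 21 of 81 crypt cells. Its log2 ratio was 0.98 (interval −0.02 to 2.05) in the THC library, where distal-side colonocytes held 14 UMIs, and 4.93 in the vehicle library, where they held 1. The 2 libraries therefore differed in how far Lgr5 set the classes apart. Sox9, a transcription factor of the crypt base, did not separate them in 1 direction, with 0.40 and −0.21. Olfm4 and Lef1 had no UMI in the crypt cells of either library.

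Depth could raise such detection, so each cell was also thinned to 2000 UMIs, and the share of cells with a UMI was averaged over all possible draws. Lgr5 was then found in 4.73% of THC and 6.34% of vehicle crypt cells (27.3% and 25.9% unthinned), against 1.92% and 0.117% of distal-side colonocytes and 0.158% and 0.165% of the other cells, those that failed the epithelial limits. Cd44 was found in 24.7% and 26.1% (75.0% and 70.4% unthinned). At 1 depth both genes were thus found in like shares of the crypt cells of the 2 libraries.

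The stem and Wnt list is not confined to epithelium. Summed over its 26 genes it reached 1366 and 1551 CPM in crypt cells and 669 and 766 in distal-side colonocytes. Goblet cells stood between them at 1115 and 1064, and the other cells, outside the epithelial limits, at 1494 and 1532. The summed list thus separated crypt cells clearly from distal-side colonocytes, less from goblet cells, and not from the other cells.

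**Figure D1:**
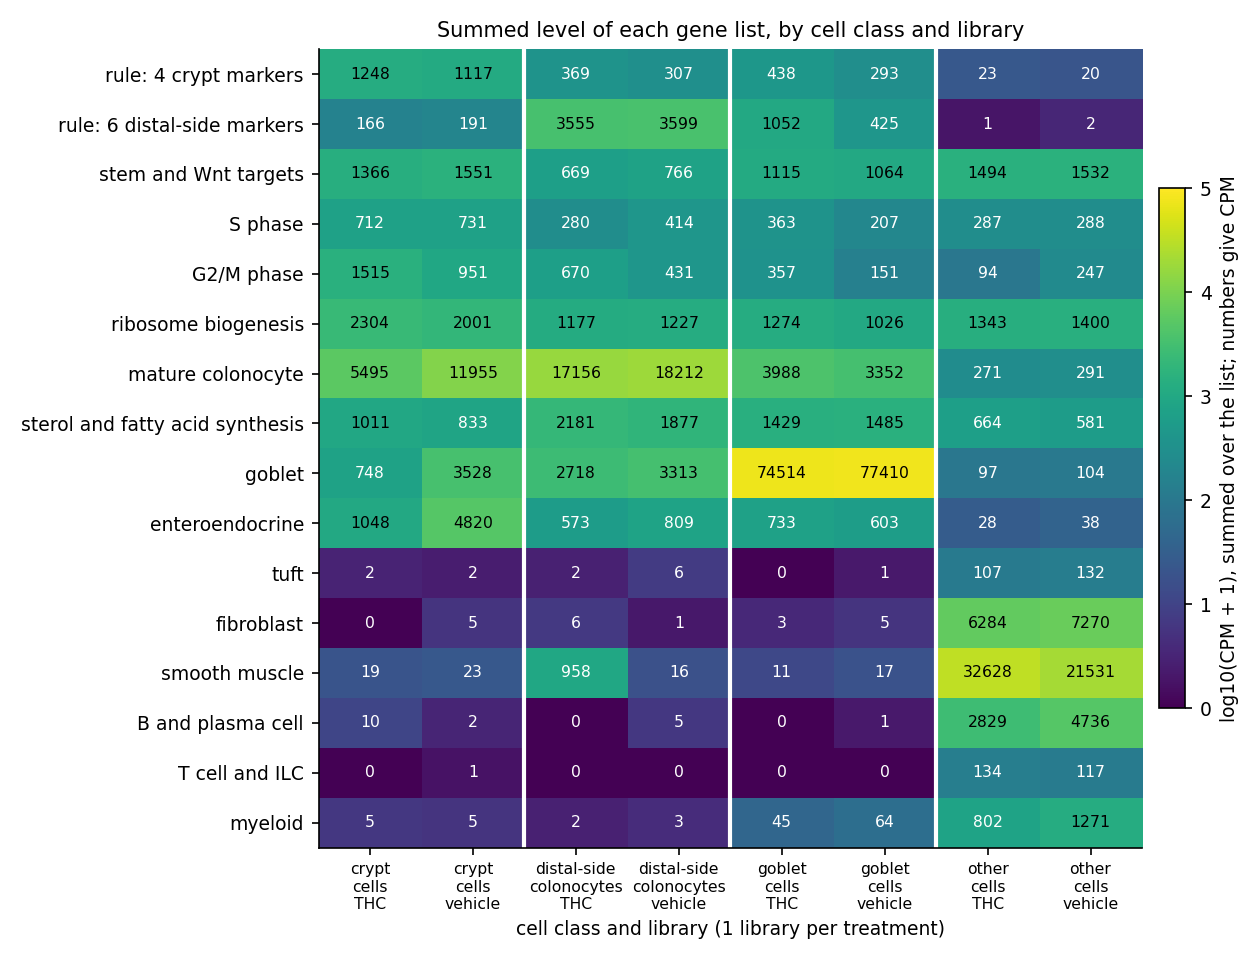
Summed CPM of each gene list (rows) in each cell class of each library (columns), with colour giving log10(CPM + 1) and the printed number the CPM. Of the 4 classes shown, crypt cells are highest in the S phase and G2/M lists in both libraries, at 712 and 731 CPM and at 1515 and 951 CPM, and low in the lists of fibroblast, smooth muscle and immune genes.

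Division genes were higher in the crypt cells. Of 22 genes of G2 and mitosis, 21 were higher than in distal-side colonocytes in both libraries (42.2% of all genes) and 13 at least 2-fold (4.48% of all genes). Of 19 genes of DNA replication, 17 were higher in both and 7 at least 2-fold, against the same shares. Cdk1, the kinase that drives entry into mitosis, stood at 74.5 and 43.0 CPM against 16.1 and 18.2 CPM. Hells, a chromatin remodeller of replicating cells, stood at 38.3 and 46.1 CPM against 5.69 and 11.8 CPM. Both genes were thus at least 2-fold higher in crypt cells in each library. All 14 genes of ribosome building were higher in both libraries, against 42.2% of all genes. At least 2-fold higher in both was 1 of the 14, near the 4.48% of all genes.

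Genes of mature colonocytes were lower. Of 26 measured, 21 were lower in crypt cells in both libraries, against 29.3% of all genes, and 10 at least 2-fold, against 387 of 9708 genes, or 3.99%. Muc3, a membrane mucin of the brush border, stood at 217 and 240 CPM against 1787 and 1809 CPM in distal-side colonocytes. Slc26a3, the chloride-bicarbonate exchanger of the surface, had log2 ratios of −2.11 and −1.83, and Scnn1a, a subunit of the sodium channel ENaC, −2.83 and −3.04. Both surface transporters were thus lower in the crypt cells of each library. Slc9a3, the sodium-proton exchanger, had no UMI in any crypt cell and 17 and 9 UMIs in the distal-side colonocytes. Of the 16 ion transport genes measured, 5 were higher in crypt cells in both libraries and 10 lower, against 42.2% and 29.3% of all genes. At least 2-fold higher was 1 and lower were 5, against 4.48% and 3.99% of all genes. Among the 5 higher were Kcnq1, the channel that Kcne3 joins, at 0.99 and 1.52, and Cftr, the apical chloride channel, at 0.42 and 0.81. Ano1, a calcium-activated chloride channel outside that list, gave 0 and 2 UMIs in crypt cells and 47 and 36 in distal-side colonocytes. Of 19 genes of sterol and fatty acid synthesis, 17 were lower in crypt cells in both libraries and 7 at least 2-fold, against 29.3% and 3.99% of all genes. Scd2, a fatty acid desaturase, had −1.66 and −1.67.

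Genes that mark position along the gut also differed. Hox genes are transcription factors that record a cell's place along the body axis, with higher-numbered members toward the tail end. Hoxb6 had log2 ratios of 2.93 and 1.85 in crypt cells over distal-side colonocytes, Hoxb7 of 2.32 and 3.07, and Hoxb8 of 3.15 and 2.80. Hoxb9 was less apart, at 0.98 and 1.10. The most posterior genes lay the other way. Hoxa13 had −2.49 and −2.38, and Hoxd13 had no UMI in THC crypt cells and −2.68 in vehicle. Between them, Hoxa9 had −0.14 and −0.18 and Hoxa10 −0.48 and −0.46. Cdx2, an intestinal identity factor, had 1.11 and 1.28, while its relative Cdx1 had 0.01 and −0.06. The rule holds Hoxb13 among its distal genes, so a lower level of posterior genes goes with how the cells were chosen, and position and maturity cannot be told apart here.

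**Figure D2:**
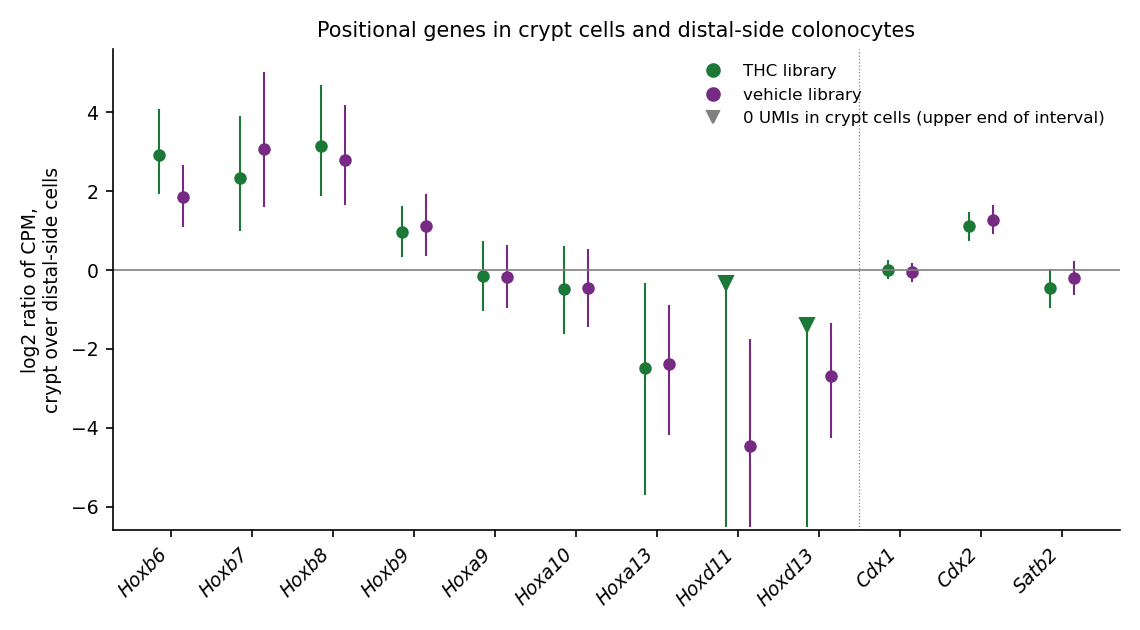
Log2 ratio of crypt cells over distal-side colonocytes for position genes, 1 point per library, with the 95% counting interval as a bar; a triangle marks a gene with 0 crypt UMIs at the upper end of its interval. Hoxb6, Hoxb7 and Hoxb8 lie above 0 and Hoxa13 below 0 in both libraries.

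Beyond the lists, 246 of 7500 genes with at least 50 UMIs were at least 2-fold higher in crypt cells than in distal-side colonocytes in both libraries (3.28%), and 286 were lower (3.81%). The genes highest by the interval bound nearest 0 included Sox4, a transcription factor of progenitor cells, at log2 ratios of 2.24 and 2.50. Fabp6, the ileal bile acid-binding protein, headed this ranking but lay in 5 and 6 cells only. Others were Cd44, Reg3g, Cps1, Nr2e3, Hoxb8, C2cd4b, Car8, Rgcc and Lgals2. Those farthest below were Sprr2a3, Atp12a (the colonic proton-potassium pump), Zg16, Fhl1, B3gnt7, Thbs4, Fxyd4, Muc3, Slc13a2, Ano1, Anxa3 and Tppp3. Against goblet cells, 724 of 7293 genes were at least 2-fold higher in both libraries (9.93%) and 615 lower (8.43%). Sult1a1, a sulfotransferase of drug metabolism, had 3.01 and 3.14 over goblet cells, and Mgst1, Nqo1 and Cyp2c65, also enzymes of drug metabolism, were among the 12 highest. Among the 12 lowest were the goblet genes Clca1, Spdef, Retnlb, Zg16 and Spink4, which follow from the limit on Muc2.

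The crypt cells were not uniform, and the label undifferentiated did not hold for every member. The mature colonocyte list took at least 1% of UMIs in 6 of 44 THC and 15 of 81 vehicle cells. In those cells the median share of the stem and Wnt list was 0.0248% and 0.0827%. It was 0.139% and 0.185% in the 37 THC and 55 vehicle cells that were also low in goblet genes (under 0.5% of UMIs) and enteroendocrine genes (under 0.1%). The members richer in mature genes were thus poorer in stem genes. At 10% or more there were 0 THC and 2 vehicle cells, 1 of which held 2428 Car1, 215 Krt20 and 121 Aqp8 UMIs. The goblet list took at least 0.5% of UMIs in 0 THC and 10 vehicle cells. Enteroendocrine genes lay almost wholly in single cells, with 1 THC cell at 4.196% of UMIs (582 Chgb and 336 Chga UMIs) and 1 vehicle cell at 26.6% (2677 Gcg, 2586 Pyy and 535 Insl5 UMIs).

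**Figure D3:**
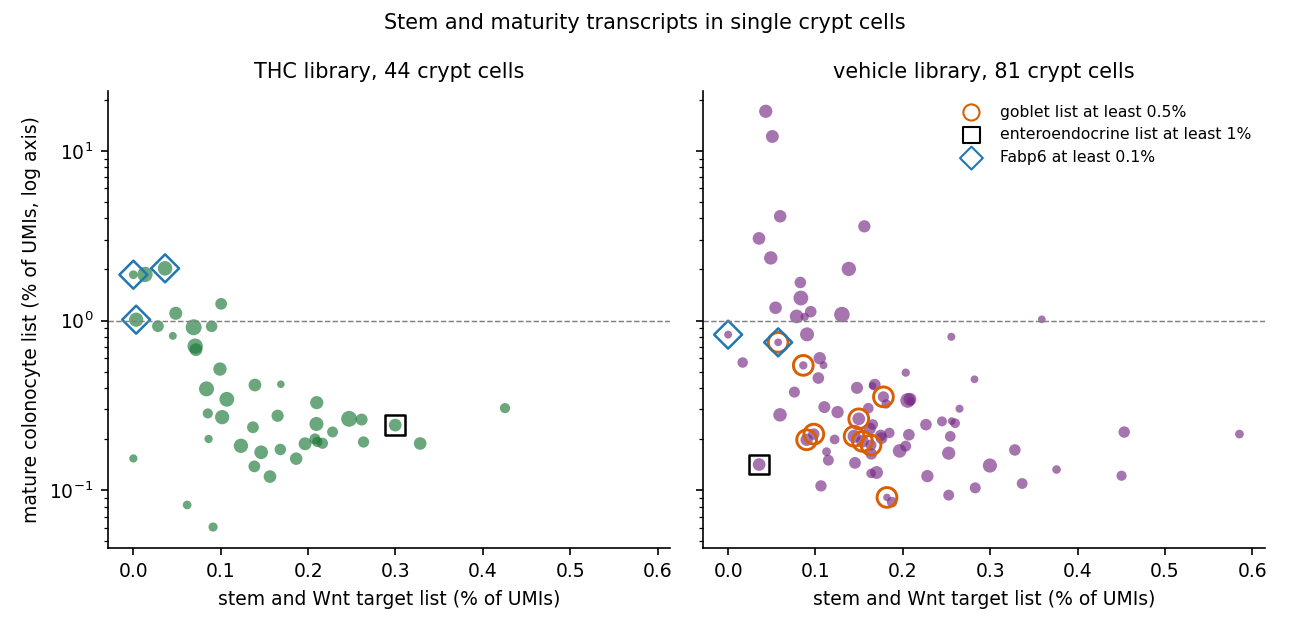
Share of UMIs from the mature colonocyte list (vertical, log axis) against the stem and Wnt list (horizontal) in each crypt cell, 1 point per cell, larger for a deeper cell, with the THC library left and the vehicle library right; the dashed line marks 1%, and outlines mark cells rich in goblet genes, enteroendocrine genes or Fabp6. Cells above the line lie mostly at low stem shares, and 1 vehicle cell reaches 17.1% of mature UMIs.

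Markers of non-epithelial cells, and of tuft cells, an epithelial type, were near 0 in the crypt cells. The summed lists gave 0 and 4.69 CPM for fibroblasts in the THC and vehicle libraries, against 6284 and 7270 CPM in the other cells, and 18.6 and 22.7 CPM for smooth muscle, against 32628 and 21531. B and plasma cell genes gave 9.85 and 2.34 CPM, myeloid genes 5.47 and 4.69, T and innate lymphoid genes 0 and 0.781, endothelial genes 6.57 and 5.47, glial genes 1.09 and 0, and tuft genes 2.19 and 1.56. All 6 fibroblast and all 7 T and innate lymphoid genes were at 0 in the THC crypt cells. In the vehicle crypt cells 1 of 6 and 6 of 7 were at 0.

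Between THC and vehicle crypt cells, 36 of 5419 genes with at least 50 UMIs were at least 2-fold higher with THC (0.664%) and 88 were at least 2-fold lower (1.62%). With at least 20 UMIs, 153 of 8357 were higher (1.83%) and 296 lower (3.54%), and the median log2 ratio of all genes was 0.03. Genes of G2 and mitosis were higher with THC as a list, and genes of goblet, enteroendocrine and mature colonocytes were lower. The values of the lower lists with other choices of cells are given below.

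Of the 22 genes of G2 and mitosis, 21 had at least 20 UMIs and all 21 had a log2 ratio above 0, with a median of 0.69. Among all genes with at least 20 UMIs, 4468 of 8357 lay above 0. At least 2-fold higher were 2 of the list, Cenpa and Ccna2, against 1.83% of all genes. Cenpa, the histone of the centromere, gave 109 THC and 61 vehicle UMIs in 17 of 44 and 13 of 81 cells, a log2 ratio of 1.32 (interval 0.86 to 1.80), which was 0.30 with cells thinned to 1000 UMIs. Ccna2, the cyclin of S phase and G2, gave 80 and 49 UMIs in 17 and 10 cells, 1.19 (0.66 to 1.74), and from 0.95 to 1.88 over the other settings. Mki67, the proliferation antigen, gave 138 and 118 UMIs in 25 and 25 cells, 0.71 (0.35 to 1.08). Each of these was found in a larger share of THC than of vehicle cells. These shares are unthinned, and the THC cells were deeper (median 20726 against 16471 UMIs), which could raise detection. Top2a, which untangles DNA before division, was nearly level at 0.10 (−0.37 to 0.57). The 18 replication genes measured had a median of −0.04, with 9 above 0 and 9 below.

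The list's median stayed between 0.52 and 0.89 over 10 other ways of choosing and summing the cells. With the richest cell left out gene by gene it was 0.62, and it was 0.89, with 10 of 21 genes at least 2-fold higher against 2.43% of all genes, in the 37 THC and 55 vehicle cells without mature, goblet-rich or enteroendocrine-rich members. The distal-side colonocytes had the same median, 0.69, with 14 of 16 genes higher, against 3996 of all 7781 genes measured there. The G2/M genes were thus higher by the same median outside the crypt cells, and the difference between the classes was not tested. The UMIs of the list were spread unevenly over cells. In the THC library 20 of 44 crypt cells held at least 10 UMIs of the list and in the vehicle library 16 of 81, while 5 and 27 cells held none. The richest cell held 21.7% and 16.2% of the list's UMIs.

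At 2000 UMIs per cell, 38.6% (interval 24.2 to 54.7) of 43 THC crypt cells and 19.4% (11.1 to 30.2) of 74 vehicle crypt cells held at least 2 UMIs of the G2/M list (72.7% and 50.6% unthinned). The shares with replication genes were 31.8% and 30.3%. In distal-side colonocytes the G2/M shares were 18.1% and 11.5%, in goblet cells 11.1% and 2.06%, and in the other cells 2.74% and 3.99%. Of these 4 classes the crypt cells had the highest G2/M share in both libraries. The intervals of the crypt shares overlap between 24.2% and 30.2%.

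**Figure D4:**
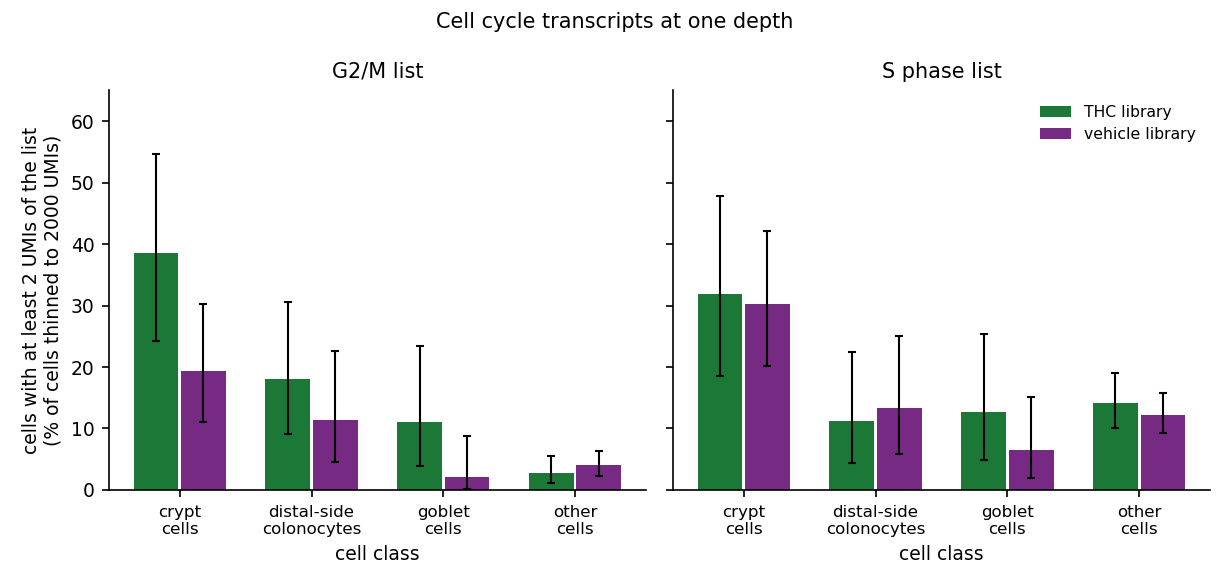
Share of cells with at least 2 UMIs of the G2/M list and of the replication list after thinning to 2000 UMIs per cell, by cell class and library, with exact 95% intervals. The G2/M share of crypt cells is 38.6% with THC and 19.4% with vehicle, and the replication shares lie close together.

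Because the G2/M genes were higher together, promoters are shown for the 5 with the most crypt UMIs among those matched (RefSeq, mouse build GRCm38.p6, the 120 bases before each gene's start, 5′ to 3′ on the gene's own strand). Capitals mark exact matches to CCAAT or its reverse ATTGG, the letters bound by the factor NF-Y, and to TTTGAA or its reverse TTCAAA, the core letters of the cell cycle homology element. The regions are chr2:164769809-164769928 on the plus strand for Ube2c, chr13:51645112-51645231 on the plus strand for Cks2, chr7:135716380-135716499 on the minus strand for Mki67, chr9:70421555-70421674 on the minus strand for Ccnb2 and chr11:117849117-117849236 on the plus strand for Birc5.
Ube2c: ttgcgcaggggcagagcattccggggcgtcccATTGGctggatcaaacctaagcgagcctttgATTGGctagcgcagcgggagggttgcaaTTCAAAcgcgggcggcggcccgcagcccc
Cks2: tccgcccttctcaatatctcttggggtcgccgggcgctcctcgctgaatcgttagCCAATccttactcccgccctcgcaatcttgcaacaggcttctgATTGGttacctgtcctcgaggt
Mki67: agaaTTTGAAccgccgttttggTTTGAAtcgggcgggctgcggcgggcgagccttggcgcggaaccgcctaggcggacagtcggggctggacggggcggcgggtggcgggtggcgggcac
Ccnb2: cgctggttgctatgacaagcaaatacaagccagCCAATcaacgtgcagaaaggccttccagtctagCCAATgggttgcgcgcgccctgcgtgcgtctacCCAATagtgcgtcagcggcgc
Birc5: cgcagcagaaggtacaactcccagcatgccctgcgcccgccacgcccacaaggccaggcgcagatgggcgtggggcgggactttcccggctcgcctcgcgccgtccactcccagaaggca

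Within 250 bases before the start, 19 of the 22 G2/M genes had a promoter in the RefSeq table, and 17 of them (89.5%) held CCAAT or ATTGG, against 34.2% of 27025 promoters. TTTGAA or TTCAAA stood in 7 (36.8%) against 16.3%, and both motifs in 7 (36.8%) against 5.67%. Birc5 shows neither in its window. Both strands were searched, a match to 1 motif may share letters with a match to the other, and a match is a description of letters, not a site.

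The lists lower with THC were read with their cells. The goblet list had a median log2 ratio of −3.33, with 10 of 12 genes at least 2-fold lower, against 3.54% of all genes. Spink4, a goblet peptidase inhibitor, gave 74 THC and 1332 vehicle UMIs, and Agr2, a chaperone of mucin folding, 105 and 1279. A single vehicle cell held 452 of the Spink4 and 577 of the Agr2 UMIs. In the 37 and 55 cells without mature, goblet-rich or enteroendocrine-rich members, which removes goblet genes by construction, the median was 0.04, Spink4 was at 0.44, Agr2 at −0.01 and Reg4, a lectin of secretory cells, at 0.60. With the richest cell left out gene by gene the median was −4.03. The goblet median was thus near 0 only where cells were left out by their goblet, mature and enteroendocrine genes. Free RNA, taken from THC barcodes under 100 UMIs, held 569 CPM of Spink4 and 815 of Agr2, against 81.0 and 115 CPM in the THC crypt cells and 1040 and 999 in the vehicle crypt cells, and its part was not tested.

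The enteroendocrine list had a median of −6.27 (−4.97 with genes at 0 set at their bound of 3 counts). Of its 8 genes, 5 were at least 2-fold lower (3.54% of all genes) and 3 at least 2-fold higher (1.83%). A single cell held 99.5% of its UMIs with THC and 96.9% with vehicle, so this list compares 1 cell with 1 cell.

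Other genes far lower with THC were also carried by few cells. Hspb1, a small heat shock protein, gave 1 THC and 99 vehicle UMIs, 65 of them in 1 vehicle cell, and 1 and 34 UMIs, or −5.01, in the cells without mature, goblet-rich or enteroendocrine-rich members. In distal-side colonocytes it lay the other way, with 45 and 11 UMIs, or 1.85. The smooth muscle list stood at 958 CPM in the THC and 16.1 CPM in the vehicle distal-side colonocytes, and its part was not tested. Sct, the hormone secretin, gave 3 and 195 UMIs, 100 of them in 1 vehicle cell, and 2 and 2 in those remaining cells, too few to compare. Tff3, a goblet peptide, gave 9 and 211 UMIs, and Ccl6, a chemokine, 3 and 96. In the remaining cells Tff3 gave 8 and 27 UMIs, and its log2 ratio of −4.06 became −1.68. Ccl6, at −4.51 in all crypt cells, gave 3 and 10 UMIs there. Ramp1, a subunit of the CGRP receptor, gave 2 and 53 UMIs, and 2 and 3 in the remaining cells. For Sct, Tff3, Ccl6, Ramp1 and Hspb1, most of the vehicle UMIs thus lay in the cells left out. Muc2, a rule gene, gave 15 and 244, and Cyp2c55, a drug-metabolising P450, 174 and 1188 in 21 and 36 cells, where the log2 ratio of −2.28 became −0.47.

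The mature colonocyte list had a median of −0.37. Of its 21 genes, 9 were at least 2-fold lower (3.54% of all genes) and 2 at least 2-fold higher (1.83%). The median was 0.32 in the cells without mature, goblet-rich or enteroendocrine-rich members and 0.57 with a limit of 10% mitochondrial UMIs, and −0.35 with the richest cell left out gene by gene. Its sign thus depended on which cells were counted. Per cell, the median share of the mature list was 0.267% with THC and 0.264% with vehicle, nearly level. Aqp8, a surface water channel, gave 0 and 245 UMIs, the latter in 6 cells. Of these UMIs, 121 and 115 lay in the 2 vehicle cells with at least 10% of UMIs from the mature list. Slc51a and Slc51b, the subunits of the basolateral bile acid transporter, gave 52 and 35 and 49 and 25 UMIs, and without their richest cell had 0.80 and 0.34.

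Among genes higher with THC, Fabp6 gave 1120 UMIs in 5 of 44 cells against 134 in 6 of 81, and the richest cells held 485 and 108. In the cells without mature, goblet-rich or enteroendocrine-rich members it gave 2 THC and 111 vehicle UMIs, a log2 ratio of −5.72. With a minimum of 2500 UMIs per cell it was 8.28. Fabp6 was thus high in a handful of cells in each library, and its direction turned with which cells were counted. Reg3b, an antimicrobial lectin, gave 350 and 60 UMIs in 8 and 6 cells, with 239 of the THC UMIs in 1 cell, and its log2 ratio of 3.03 was 0.41 with cells thinned to 1000 UMIs and 0.54 as a mean of per-cell CPM. Cd74, the invariant chain of MHC class II, gave 64 and 14 UMIs in 7 and 6 cells, where free RNA held 329 CPM against 70.1 CPM in the THC crypt cells, and its part was not tested. Its log2 ratio of 2.68 was 0.88 after that thinning, and in distal-side colonocytes it was −3.08, from 2 and 15 UMIs. Gdf15, a stress-induced hormone of the TGF-β family, gave 306 and 182 UMIs in 25 and 30 cells, 1.24 (0.97 to 1.51), but −0.68 in distal-side colonocytes and 0.37 after the same thinning. Ccdc34 stood at 1.17, Cdca3, which promotes entry into mitosis, at 1.27, and Gm4316 at 1.73. Pclaf, a partner of the replication clamp, stood at 1.07, but at −2.42 in distal-side colonocytes, from 11 and 52 UMIs.

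**Figure D5:**
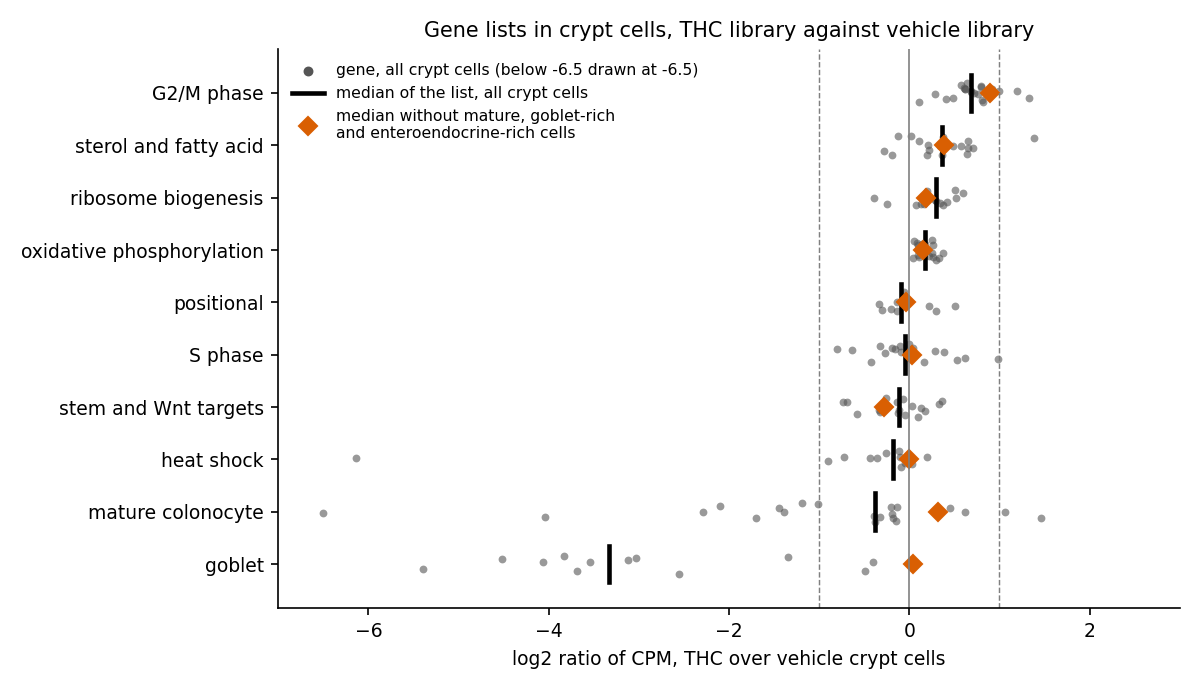
Log2 ratio of THC over vehicle crypt cells for 10 gene lists, with 1 point per gene of at least 20 UMIs (values under −6.5 drawn at −6.5), the median as a bar and, as a diamond, the median without mature, goblet-rich and enteroendocrine-rich cells; dashed lines mark 2-fold. The G2/M genes lie above 0 with a median of 0.69, and the goblet genes lie below with a median of −3.33 and a diamond at 0.04.

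Several lists moved little. The stem and Wnt list had a median of −0.12, with 6 genes higher, 11 lower and none at least 2-fold changed, and Lgr5 was at −0.32 (−1.11 to 0.44). The median stayed between −0.28 and −0.09 over 10 other settings, among them the removal of called doublets, which took out no crypt cell. Ion transport had −0.03, position genes −0.09, Notch genes −0.05 and receptors of niche signals −0.06. Of 19 sterol genes 16 were higher with THC, at a median of 0.36, and Fdps, of the mevalonate pathway, was at least 2-fold higher at 1.38 (0.39 to 2.43). All 17 respiratory chain genes were higher, at a median of 0.17. Of all 8357 genes measured, 4468 were higher. None of these medians reached 2-fold.

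Some known and proposed receptors of cannabinoids were not detected at this depth. Cnr1, Cnr2, Gpr55 and Trpv1 had no UMI in the crypt cells of either library, which allows up to 3.28 CPM in the THC and 2.34 CPM in the vehicle cells. Faah, which breaks down the endocannabinoid anandamide, gave 30 and 29 UMIs at 0.54. Pparg and Ppard, nuclear receptors for fatty acids, gave 81 and 96 and 76 and 113 UMIs. The 9 endocannabinoid genes measured had a median of 0.24, with 5 higher, 4 lower and none at least 2-fold changed.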

How the data were processed

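The members and gene lists were chosen with earlier results of these data known. The deposited matrices hold raw UMI counts per gene and barcode, made with Cell Ranger 3.0.2 per the file headers; bcl2fastq and Seurat are named in the submitters' processing notes without versions. No source used here gives the genome build (not stated in labels or headers). The THC matrix was deposited with all 737280 barcodes (106628 with a UMI) and the vehicle matrix with 973 barcodes, the lowest at 502 UMIs. Counts were summed over the cells of a class, scaled to CPM and compared as log2 ratios with exact conditional Poisson intervals (95%), and shares have exact binomial intervals. List genes needed at least 20 UMIs and other genes 50. Named genes are the 10 highest and 10 lowest between libraries and the 12 between classes, ranked by the interval bound nearest 0, beside list members by UMIs. Scrublet, from scanpy 1.11.5, called 1 doublet in each library and no crypt cell; none was removed. Free RNA was read from THC barcodes under 100 UMIs (817420 UMIs). The ratio was tested on simulated data. These were Poisson counts without variation between cells, as the interval assumes. The test therefore does not show how the interval holds with such variation. Some named genes are not reported here. Python 3.11.15, numpy 2.4.6, scipy 1.17.1 and pandas 2.3.3 were used.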

Additional observations from a re-analysis of the deposited data

How the results depend on the processing

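No paired analysis was possible because each group is 1 library. Cells thinned to 1000 UMIs gave 2 genes at least 2-fold higher and 18 lower with THC, and 15 higher and 45 lower in crypt than in distal-side cells; the median of heat shock genes was 0.0648, of ER stress genes 0.26, of immediate early genes −0.62, of respiratory chain genes 0.35, of ribosome building genes −0.0378, of position genes 0.32 and of drug-metabolism genes 0.23. Applied to cells thinned to 1000 UMIs, the membership rule gave crypt shares of 16.5% and 16.2%. The mean of per-cell CPM gave 117 genes higher and 184 lower, with medians of −0.27 for stem genes, −0.18 for niche receptors, 0.55 for endocannabinoid genes, −0.0610 for heat shock, −0.0518 for ER stress, −0.56 for immediate early, 0.12 for sterol, 0.32 for glycolysis and 0.26 for respiratory chain genes. The counts from per-cell CPM were over the same 5419 genes as the main counts. Thinned cells hold fewer UMIs, so fewer genes reached the UMI minimum there. The genes measured also changed with the limits on cells and UMIs, and their number is given only where stated. Without that number, a count is not comparable with the main count. With at least 20 UMIs the counts were 153 and 296 of 8357 genes and, in crypt over distal-side cells, 435 of 9708 higher. With 1 UMI in each group they were 674, 872 and 529. A limit of 10% mitochondrial UMIs gave medians of −0.27 for stem, 0.55 for G2/M, 0.57 for mature colonocyte, 0.18 for ion transport, 0.29 for MHC class I and 0.0433 for drug-metabolism genes, and 143 genes higher in crypt than in distal-side cells. A crypt sum of at least 2 times the distal sum gave 0.52 for G2/M, 7.10 for enteroendocrine (a reversal from −6.27), 0.34 for ER stress and 0.21 for MHC class I genes. With the richest cell of every gene left out, the goblet median was −4.03. With 1 UMI enough, the G2/M shares were 55.8% and 33.2%. An alternative chosen after seeing the data left out mature, goblet-rich and enteroendocrine-rich cells: 29 genes were lower with THC and 435 lower than in distal-side cells, and the medians were −0.28 for stem, 0.89 for G2/M, 0.32 for mature, 0.0447 for goblet (a reversal), −0.000346 for heat shock, 0.33 for ER stress, 0.00591 for immediate early, 0.33 for MHC class I and 0.0725 for drug-metabolism genes. Under it Fabp6 was at −5.72, Sct at 0.0725 (from 2 UMIs in each library), Spink4 at 0.44, Muc2 at 0.0725 and Reg4 at 0.60, all reversed. The cause of these changes was not tested, beyond the removal of goblet and enteroendocrine genes by construction. Of the remaining results, 293 values of comparisons and 157 of named genes stayed within their interval or 1.5 times their count. For the median of a list, that interval was taken from the ranked log2 ratios of its genes and is no counting interval. It ran from −9.58 to 5.24 for enteroendocrine genes, so staying within it says little there. The values that stayed include those without called doublets, where no crypt cell was removed. Another 38 values of named genes moved outside their interval in the same direction. Several lists, the G2/M and stem lists among them, had too few genes for a median at 1000 UMIs. With 44 and 81 cells, genes under about 20 UMIs could not be compared at this depth.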
